A study of Mus musculus with 9 samples.

Results

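The small RNAs catalogued as piRNAs were followed through an Ago2 RNA-IP (Ago2-IP), an Sfpq RNA-IP (Sfpq-IP) and the input of a mouse cell line. Entries were selected on their signal. An entry was taken when its type was piRNA and its value reached 20 in at least 1 of the 4 deposited group columns, namely the Ago2-IP, the Sfpq-IP and the input in the table of each. This rule kept 86 of 635 piRNA entries, among 2049 small RNA entries of all classes. It uses the same values that are described here, so the ratios of these entries are a description and carry no test.

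The 9 libraries comprise 3 of the Ago2-IP (antibody clone 2D4), 3 of the Sfpq-IP (antibodies Ab38148 and B92) and 3 of the input, all from unmodified cells without a treatment named in the labels. An RNA-IP sequences the RNA that an antibody brings down with its protein, and the input is the extract before the antibody. No pull-down with a control antibody is among the libraries. The labels give RAW 264.7, a macrophage-like line, as the cell type, while they also name a stem cell and the design text names P19, an embryonal carcinoma line. All 6 of 6 miRNAs of a macrophage and myeloid list were present in the input, with a sum of 335997. Most of this sum was miR-21a-5p at 265164. The others were miR-146a-5p at 52710, miR-155-5p at 12866, miR-142-5p at 4307, miR-142-3p at 846 and miR-223-3p at 103. Of 8 pluripotent stem cell miRNAs 1 was matched, at 0 in the input. Of 6 germ line miRNAs 2 were matched, miR-449a-5p at 135 and miR-34c-5p at 16.5 in the input. The other names of both lists were not analysed here.

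piRNAs are small RNAs that guide PIWI proteins, a branch of the Argonaute family, and they are known from the germ line, where they silence transposons. Ago2 belongs to the other branch and carries miRNAs. Sfpq binds RNA in the nucleus and is a protein of the paraspeckle. In small RNA sequencing an entry is called a piRNA because reads match a catalogued piRNA sequence. Catalogues of piRNAs are known to hold sequences that also occur in tRNAs, rRNAs, snoRNAs and other abundant RNAs, so that a match in a somatic cell need not stand for a PIWI-bound RNA. The tables give names without sequences or positions, so the origin of the reads was not examined. None of the 86 entries (0) had 4 values equal, within 0.1%, to those of an entry of another class. Such a match would need nearly the same reads in both entries, so its absence does not bear on the origin of the reads.

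Each value is a signal, the authors' mean over the 3 libraries of a group of reads scaled per library, and therefore carries no spread between libraries. All values under 2 (364 in the Ago2-IP and 445 in the Sfpq-IP) lie on whole multiples of 3 weights, 1 per library. From the mean weight, a value of 20 corresponds to some 75.7 reads over the 3 Ago2-IP libraries, 67.6 over those of the Sfpq-IP, and 49.3 (Ago2 table) or 55.9 (Sfpq table) over those of the input. The intervals given for a log2 ratio are exact (Clopper-Pearson) 95% intervals on these reads. They cover counting error only, and PCR copies of a molecule count as separate reads. Their median width was 0.40 with Ago2 and 0.30 with Sfpq on the log2 scale. Summed over all small RNAs, the Ago2-IP held a signal of 9809388 against 7299085 for the input of the same table. For Sfpq the sums were 9957738 in the IP against 6449023.

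piRNA entries held 0.449% of the signal in the Ago2-IP and 1.23% in the Sfpq-IP, against 7.37% of the input in the Ago2 table and 7.34% in the Sfpq table. The share was thus 16.4 times lower in the Ago2-IP and 5.96 times lower in the Sfpq-IP. The 86 entries carried nearly all of this signal, 99.6% in the Ago2-IP, 99.7% in the Sfpq-IP and 99.9% in the input. In the input 1 entry, mmu_piR_000691, made up 50.8% of the piRNA signal, and the joint entry of mmu_piR_039147, mmu_piR_039114 and mmu_piR_000159 a further 13.8%. Without mmu_piR_000691 the piRNA share was 0.427% in the Ago2-IP and 1.18% in the Sfpq-IP, against 3.77% of the input in the Ago2 table and 3.74% in the Sfpq table.

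The make-up differed between the groups. In the Ago2-IP the leading entries were mmu_piR_022877 with 19.3% of the piRNA signal, mmu_piR_015668 with 12.2% and mmu_piR_034793 with 9.70%, and mmu_piR_000691 held 4.95%. In the Sfpq-IP no single entry led by far. The joint entry of mmu_piR_039147, mmu_piR_039114 and mmu_piR_000159 held 11.1% there, mmu_piR_000159 alone 10.5%, mmu_piR_000958 10.1%, mmu_piR_022877 8.43%, mmu_piR_038323 8.33% and mmu_piR_000414 7.66%. It took 5 entries to reach 50% of the piRNA signal in the Ago2-IP and 6 in the Sfpq-IP, against 1 in the input. The median value of the 86 entries was 61.2 in the Ago2-IP and 167 in the Sfpq-IP, against an input of 711 in the Ago2 table and 628 in the Sfpq table.

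**Figure D1:**
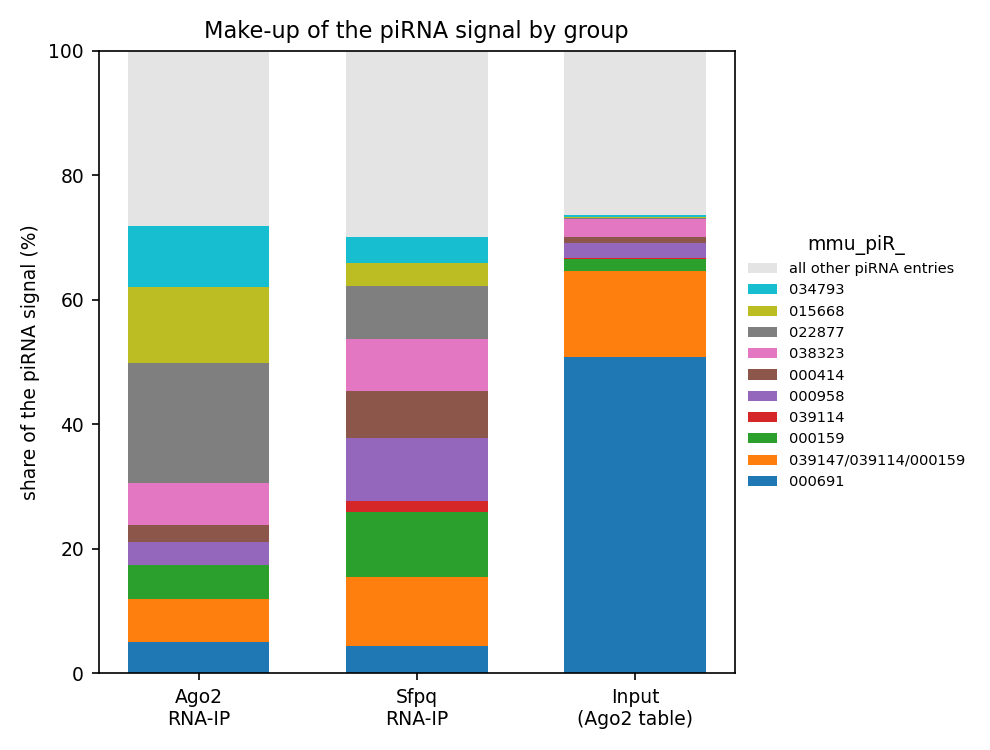
Stacked bars of the share of the piRNA signal (%) held by 10 piRNA entries and by all other piRNA entries, in the Ago2-IP, the Sfpq-IP and the input of the Ago2 table, 1 authors' mean per group. mmu_piR_000691 fills 50.8% of the input bar, against 4.95% in the Ago2-IP and 4.35% in the Sfpq-IP.

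In the Ago2-IP 75 of 86 piRNA entries were 2-fold or more below input and 7 were 2-fold or more above, where 51.7% and 16.3% of the 891 small RNAs at 20 or more were below and above by this limit. In the Sfpq-IP 57 were below and 9 above, with 48.3% and 18.4% of all small RNAs. The median log2 ratio of the entries was -3.51 (quartiles -4.27 and -2.39) with Ago2 and -1.79 (-2.71 and -0.18) with Sfpq, against -1.17 and -0.79 over all 891. Centred on these medians of all small RNAs, the entries' medians were -2.34 with Ago2 and -0.995 with Sfpq. With this centring 68 entries were 2-fold or more below and 10 above input with Ago2, and 42 and 13 with Sfpq. The shares of all small RNAs given above are without centring, and those after centring were not computed. For comparison, the median was -4.70 with Ago2 and -3.29 with Sfpq for tRNAs (n = 183), -6.68 and -6.24 for rRNAs (n = 40), -1.04 and -0.64 for snoRNAs (n = 247) and 0.48 and 0.43 for mature miRNAs (n = 335). The piRNA medians lay between those of tRNAs and snoRNAs in both IPs.

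The entries did not form one even spread with Ago2. There 30 had a log2 ratio of -4 or less, 41 lay between -4 and -2, 4 between -2 and -1, 4 between -1 and 1, 5 between 1 and 2, and 2 at 2 or more. With Sfpq the numbers of the same bands were 6, 30, 21, 20, 6 and 3. The third of the entries with the highest input had a median of -3.63 with Ago2 and -1.72 with Sfpq, and the third with the lowest had -3.44 and -1.95. The median of the Sfpq ratio minus the Ago2 ratio was 1.27 in the third with the lowest input, 1.61 in the middle one and 1.95 in the highest.

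The entries with the lowest Ago2 ratios ranked 76, 3 and 1 of the 86 by input, so they were not only abundant ones. mmu_piR_000691 had 2181 in the Ago2-IP against 273238 in the input, 125-fold lower (log2 ratio -6.97, counting interval -7.00 to -6.94). In the Sfpq-IP it had 5329 against 240955, 45.2-fold lower (-5.50, -5.52 to -5.48). mmu_piR_000935, the third in the input, had 167 against 24200 with Ago2 (-7.18, -7.30 to -7.07) and 432 against 21296 with Sfpq (-5.62, -5.70 to -5.55). These 2 entries stood lowest of all 86 with Sfpq, and with Ago2 only mmu_piR_034454 was lower. Its value of 0.260 in the Ago2-IP, against 46.7 in the input, is 1 read of 1 library, so that its log2 ratio of -7.49 has a counting interval of -12.78 to -4.96.

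Other entries at the low end were well measured in the input. mmu_piR_018323 had 268 in the Ago2-IP against 10520 in the input (log2 ratio -5.29) and 591 in the Sfpq-IP against 9004 (-3.93). mmu_piR_002945 had 16.7 against 869 with Ago2 (-5.70) and 41.2 against 761 with Sfpq (-4.21). mmu_piR_002163 had 22.2 against 1105 with Ago2 (-5.63) and 97.7 against 972 with Sfpq (-3.31). In each of these the Sfpq-IP value was above the Ago2-IP value. mmu_piR_000949 was at -5.29 with Ago2 and -3.60 with Sfpq, mmu_piR_009084 at -4.38 and -3.01, and the joint entry led by mmu_piR_039147 at -4.58 and -2.27. mmu_piR_009108 was at -5.60 with Ago2 (counting interval -6.83 to -4.60) and -3.17 with Sfpq. Its Ago2-IP value of 2.12 is only 8 reads.

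A small set of entries behaved the other way and lay above input. mmu_piR_022877 had 8492 in the Ago2-IP against 1122 in the input, 7.57-fold higher (log2 ratio 2.92, counting interval 2.86 to 2.98). In the Sfpq-IP it had 10338 against 965, 10.7-fold higher (3.42, 3.36 to 3.48). mmu_piR_003399 had 672 against 121 with Ago2 (2.47, 2.30 to 2.65) and 969 against 103 with Sfpq (3.23, 3.06 to 3.41). mmu_piR_015668 had 5396 against 1399 with Ago2 (1.95) and 4618 against 1205 with Sfpq (1.94), and mmu_piR_034793 had 4274 against 1544 (1.47) and 5119 against 1330 (1.94). The ratios of mmu_piR_015668 in the IPs differed by 0.01 on the log2 scale, less than their counting intervals. mmu_piR_019359 was at 1.30 with Ago2 and 1.38 with Sfpq, at values of 594 and 539 in the IPs. mmu_piR_035294 was at 1.19 with Ago2 (0.61 to 1.84) and 1.27 with Sfpq (0.67 to 1.93), at values of 28 and 26. It reached 20 in the IPs alone, so a ratio above input follows from how it was selected. With 20 required in the input, 5 entries were 2-fold or more above input with Ago2 and 7 with Sfpq. With every ratio centred on the mature miRNA median, 4 instead of 7 entries were 2-fold or more above input with Ago2 and 6 instead of 9 with Sfpq. The shares of all small RNAs above input under these settings were not computed. Without them, 16.3% of all small RNAs were 2-fold or more above input with Ago2 and 18.4% with Sfpq.

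The highest Sfpq ratio of the entries was that of mmu_piR_012087, with 163 in the Sfpq-IP against 2.00 in the input, 81.6-fold higher (log2 ratio 6.35, counting interval 5.12 to 7.70). In the Ago2-IP it had 8.70 against 2.38 (1.87, 0.57 to 3.39). It reached the limit of 20 in the Sfpq-IP column alone, so a high Sfpq ratio follows from how it was selected. Its input value equals 8 reads of 1 input library and 0 reads of each of the other 2, and that library alone sets the denominator of both ratios. The Ago2-IP value of 8.70 equals 34 reads, divided 16, 7 and 11 over the 3 libraries. The counting intervals above use the mean weight, which takes these values as 6 and 33 reads.

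Between these extremes 4 entries stayed within 2-fold of input with Ago2. mmu_piR_004086 was at -0.50 with Ago2 and -0.47 with Sfpq, from 779 and 679 in the IPs, and mmu_piR_012107 was at -0.08 and -0.02. For mmu_piR_012107 the counting interval held 0 in both IPs, at -0.18 to 0.02 and -0.13 to 0.08. mmu_piR_025007 (0.06 with Ago2, -0.14 with Sfpq) and mmu_piR_020692 (0.86 and -0.08) are described with the opposite sides.

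**Figure D2:**
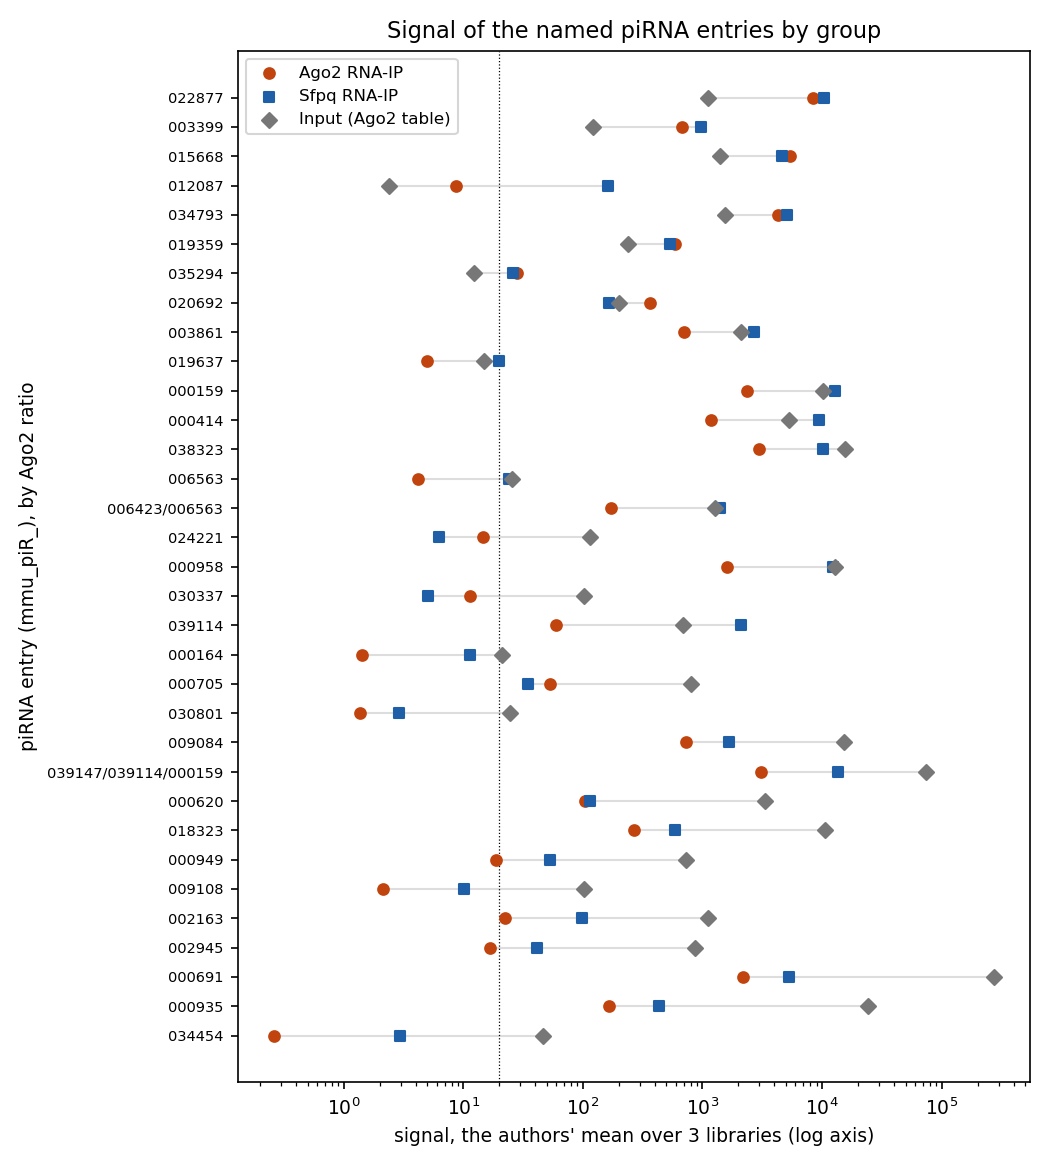
Signal on a log axis of the 33 named piRNA entries at 20 or more, ordered by Ago2 ratio, in the Ago2-IP (circles), the Sfpq-IP (squares) and the input of the Ago2 table (diamonds), with a dotted line at 20. The input lies right of both IPs in the lower rows, as for mmu_piR_000691 (273238), and left of both in the top rows, as for mmu_piR_022877 (1122).

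The IPs were then set against each other, through the Sfpq ratio minus the Ago2 ratio of the same entry. The tables were scaled separately by the authors and share the 3 input libraries, so this difference rests on the scaling of each table. It had a median of 1.69 (quartiles 0.67 and 2.53) over the 86 piRNA entries, against 0.47 over the 848 small RNAs of every class with all 4 values above 0. The Sfpq ratio was 2-fold or more above the Ago2 ratio in 59 entries and 2-fold or more below in 0 of 86, where 34.3% and 5.42% of all small RNAs were. With the input left out, the median log2 of the Sfpq-IP value over the Ago2-IP value was 1.51, and the difference was 1.31 after both tables were centred on their overall median. The class medians were 1.64 for tRNAs, 1.20 for rRNAs, 0.46 for snoRNAs and 0.00 for mature miRNAs.

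The difference ran from -0.997 to 5.31. It was largest for mmu_piR_039114 (5.31), mmu_piR_012087 (4.48) and mmu_piR_034454 (3.67), of which mmu_piR_012087 rests on 8 input reads and mmu_piR_034454 on 1 Ago2-IP read. At the other end were mmu_piR_024221 (-0.997), mmu_piR_030337 (-0.95) and mmu_piR_020692 (-0.95). mmu_piR_024221 had 6.24 in the Sfpq-IP against 97.4 in the input (-3.96, counting interval -4.68 to -3.33) and 14.6 in the Ago2-IP against 114 (-2.97, -3.42 to -2.55). mmu_piR_030337 had 5.07 against 87.9 with Sfpq (-4.12, -4.93 to -3.42) and 11.5 against 103 with Ago2 (-3.16, -3.68 to -2.71). The Sfpq-IP value of mmu_piR_024221 equals 23 reads, divided 17, 3 and 3 over the libraries, and was 2.84 without the first of them. The differences themselves were not tested. mmu_piR_000705 also stood lower with Sfpq, at -4.32 (34.6 against 689, counting interval -4.60 to -4.05). With Ago2 it was at -3.93 (53.2 against 808, -4.14 to -3.72), and these intervals overlap. mmu_piR_000620 stood higher with Sfpq by a similar amount, at -4.61 (-4.76 to -4.47) against -4.98 with Ago2 (-5.12 to -4.83).

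**Figure D3:**
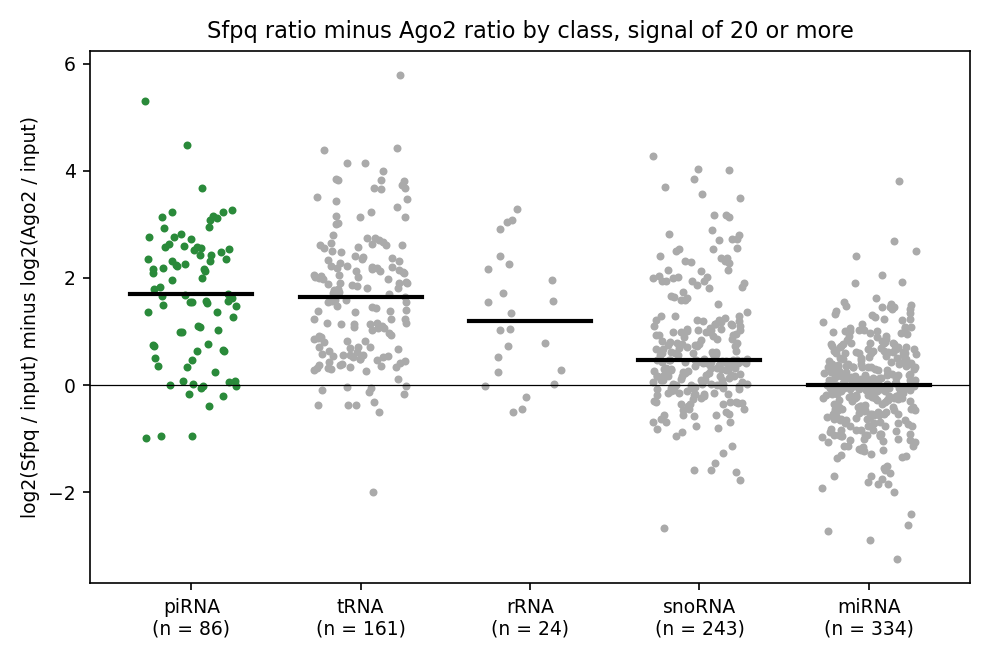
Log2(Sfpq / input) minus log2(Ago2 / input) for small RNA entries at 20 or more with all 4 values above 0, 1 point per entry, by class, with the class median as a bar. The piRNA median lies at 1.69, near that of tRNAs at 1.64 and above that of miRNAs at 0.00.

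Entries on opposite sides of input were 10 of 86, where 12.2% of all small RNAs at 20 or more were on opposite sides, a similar share. Of these, 8 were above input with Sfpq and below with Ago2, where 7.07% of all small RNAs were, and 2 were below with Sfpq and above with Ago2, where 5.16% were. In 7 of the 10 both counting intervals excluded 0, and these 7 were all below with Ago2. They include mmu_piR_019637, which reached 20 in the Sfpq-IP alone, so its place above input with Sfpq follows from how it was selected. The same count was not made over all small RNAs. The count depends on the scaling. It was 15 when centred on all small RNAs, 6 when centred on mature miRNAs and 3 when the signal of each group was scaled to the same sum. The shares of all small RNAs on opposite sides under these scalings were not computed. The entries mmu_piR_039114 and mmu_piR_000414 were on opposite sides under each of these 3 scalings. With entries that share a name summed to 1 item, 7 of 73 items were on opposite sides. The item holding mmu_piR_039114 and mmu_piR_000159 was then below input in both IPs, at -3.95 with Ago2 and -1.40 with Sfpq.

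mmu_piR_039114 showed the widest split. It had 2116 in the Sfpq-IP against 614 in the input, 3.45-fold higher (log2 ratio 1.78, counting interval 1.71 to 1.86). In the Ago2-IP it had 60.0 against 690, 11.5-fold lower (-3.52, -3.73 to -3.32). mmu_piR_000414 had 9397 against 4670 in the Sfpq-IP, 2.01-fold higher (1.01, 0.98 to 1.04), and 1192 against 5316 in the Ago2-IP, 4.46-fold lower (-2.16, -2.21 to -2.11). These were the 2 entries at 2-fold or more from input on both sides, where 0.898% of all small RNAs were. For mmu_piR_000414 the Sfpq interval holds the 2-fold limit, and each of the 3 scalings took it under 2-fold on 1 side, with -0.99 with Ago2 when centred on all small RNAs, and 0.58 (mature miRNAs) and 0.38 (same sum) with Sfpq. The values of both entries lay above the limit of 20 in every column, the lowest being 60.0 for mmu_piR_039114 in the Ago2-IP.

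The other 6 entries of this direction lay closer to input with Sfpq. mmu_piR_003861 had 2698 in the Sfpq-IP against 1840 in the input (0.55, counting interval 0.50 to 0.60) and 701 in the Ago2-IP against 2096 (-1.58, -1.65 to -1.51). mmu_piR_000159 had 12835 against 8960 with Sfpq (0.52, 0.50 to 0.54) and 2345 against 10140 with Ago2 (-2.11, -2.15 to -2.08). mmu_piR_000958 had 12386 against 11395 with Sfpq (0.12, 0.10 to 0.14) and 1616 against 12927 with Ago2 (-3.0, -3.04 to -2.96). For all 3 the value with Sfpq was near or above input while that with Ago2 was 2-fold or more below input. The joint entry of mmu_piR_006423 and mmu_piR_006563, listed in this order, was at 0.34 with Sfpq and -2.89 with Ago2. mmu_piR_019637, at 20.04 in the Sfpq-IP the entry closest to the limit and under it in the input, was at 0.59 (0.01 to 1.22) and -1.60, and its Ago2-IP value of 4.97 was 2.83 without 1 library. mmu_piR_006563 was at 0.11 with Sfpq, an interval of -0.39 to 0.60 that holds 0, and at -2.62 with Ago2, where its value of 4.16 was 2.32 without 1 library.

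In the reverse direction mmu_piR_020692 had 167 in the Sfpq-IP against 177 in the input (-0.08, counting interval -0.26 to 0.09) and 366 in the Ago2-IP against 201 (0.86, 0.72 to 1.02). mmu_piR_025007 had 234 against 259 with Sfpq (-0.14, -0.29 to 0.00) and 313 against 301 with Ago2 (0.06, -0.08 to 0.19). For both entries the Sfpq interval held 0.

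**Figure D4:**
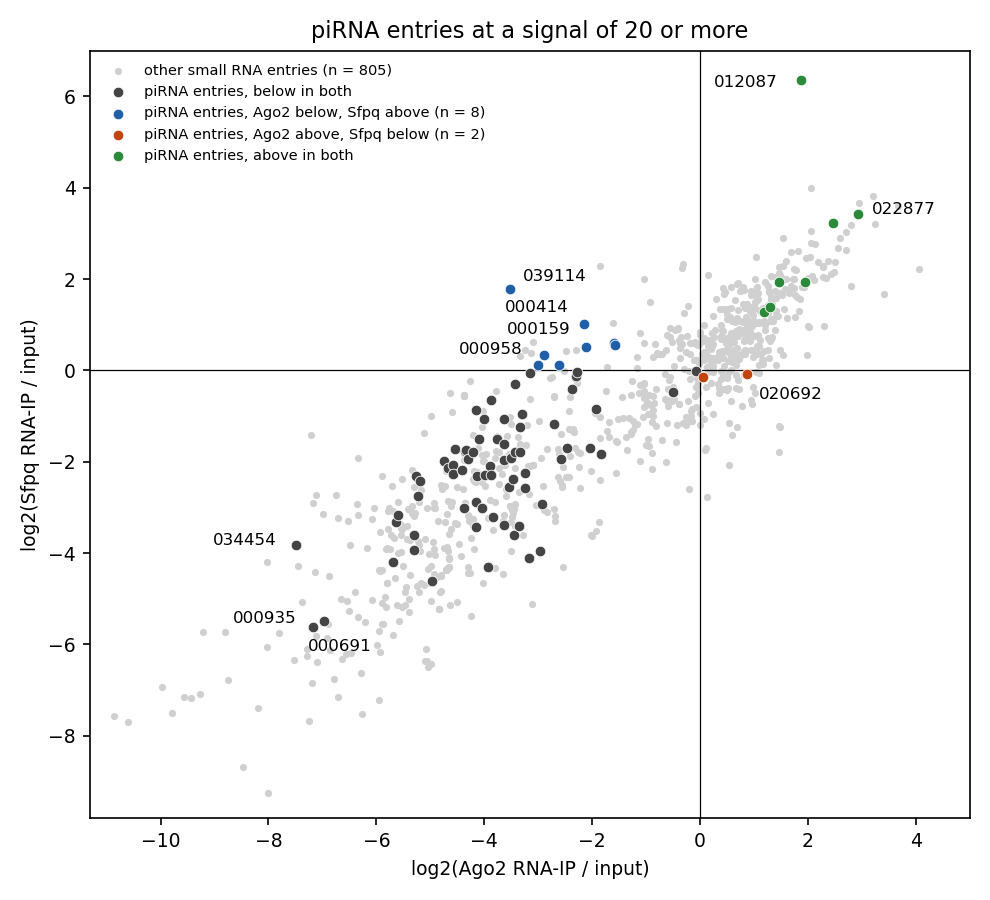
Log2 ratio to input of each small RNA entry at 20 or more, with Ago2 on the x axis and Sfpq on the y axis. Coloured points are piRNA entries by their side of input and grey points other small RNAs, and both axes share the input libraries. The 8 blue entries in the upper left are above input with Sfpq (mmu_piR_039114 at 1.78) and below it with Ago2 (-3.52).

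The names of the entries show that they are not independent of each other. Of the 86 entries 64 name 1 piRNA, 13 name 2 and 9 name 3, which makes 92 distinct names, of which 16 occur in more than 1 entry. By shared names, 19 entries fall into 6 groups, and 5 sets of names are listed in more than 1 order as separate entries. All 22 entries with 2 or 3 names were 2-fold or more below input with Ago2, as were 53 of the 64 with 1 name, and 16 of 22 and 41 of 64 were so with Sfpq. Every entry that was 2-fold or more above input named 1 piRNA. The median difference between the IPs was 2.33 for the 22 entries and 1.48 for the 64.

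The group of mmu_piR_039147, mmu_piR_039114 and mmu_piR_000159 spread most. With Sfpq its 3 entries ran from -2.27 for the joint entry (13590 in the RNA-IP against 65704 in the input) through 0.52 for mmu_piR_000159 to 1.78 for mmu_piR_039114, a range of 4.06. With Ago2 they ran from -4.58 for the joint entry (3101 against 74296) to -2.11 for mmu_piR_000159, a range of 2.47. Summed over the group the ratio was -1.40 with Sfpq and -3.95 with Ago2. Reads assigned to a single name and to the joint entry of the same name thus had different ratios.

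The other groups, chosen for description after their values were seen, spread by 1.96 or less with Sfpq. The 4 entries of mmu_piR_006423 and mmu_piR_006563 ran from -1.62 to 0.34 with Sfpq and from -3.63 to -2.62 with Ago2. The 4 of mmu_piR_006156, mmu_piR_003040 and mmu_piR_007729 ran from -2.13 to -1.07 with Sfpq and from -4.67 to -3.76 with Ago2. The group of mmu_piR_000622, mmu_piR_000616 and mmu_piR_001570 ran from -2.29 to -1.18 with Sfpq and from -3.98 to -2.71 with Ago2, and the group of mmu_piR_000216, mmu_piR_000870 and mmu_piR_038312 from -2.75 to -1.95 and from -5.24 to -4.29. In these last 2 groups the difference between the IPs moved by 0.16 and 0.26 over the entries.

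The pair of mmu_piR_000644, mmu_piR_003758 and mmu_piR_008475, listed in opposite orders, had ratios that differed by 0.011 with either protein. Its values stood at a whole ratio of 2, within a relative tolerance of 1e-04, in both IPs, at 47.3 and 23.7 with Ago2 and at 186 and 93.0 with Sfpq, while in the input the ratio was 2.02. No other pair of entries did so. Whether the same reads stand in both entries was not tested.

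**Figure D5:**
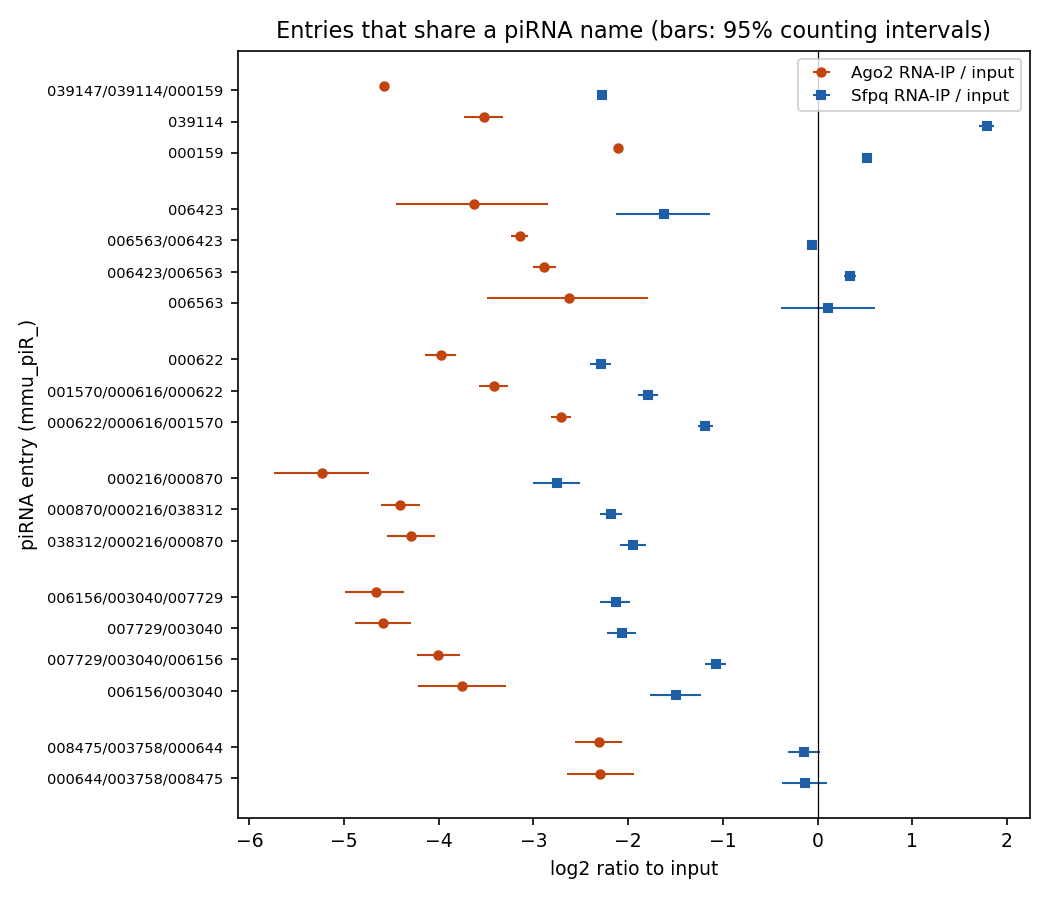
Log2 ratio to input of the 19 piRNA entries that share a name, in 6 groups, with Ago2 as circles and Sfpq as squares and bars for the 95% counting interval. In the top group the Sfpq ratio ranges from -2.27 for the joint entry to 1.78 for mmu_piR_039114, and in each row the Sfpq point lies right of the Ago2 point.

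The input values of the tables also depend on how an entry's input reads were divided over the 3 input libraries, though 1 ratio per entry does not resolve that division. The authors scaled these libraries in each table anew, so that the input of the Ago2 table over that of the Sfpq table would be 1.19, 1.08 or 1.14 if all reads came from 1 of the libraries. Over the 86 entries this ratio ran from 1.12 to 1.19 with a median of 1.14. It was 1.12 for mmu_piR_039114, mmu_piR_034454 and mmu_piR_009108 and 1.13 for the joint entry led by mmu_piR_039147 and for mmu_piR_000691. Other entries below input in both IPs had a higher ratio of the inputs. It was 1.17 for mmu_piR_018323, mmu_piR_000620, mmu_piR_000705, mmu_piR_030337 and mmu_piR_024221. For the entries above input it was 1.16 (mmu_piR_022877, mmu_piR_015668, mmu_piR_034793 and mmu_piR_019359), 1.18 (mmu_piR_003399), 1.13 (mmu_piR_035294) and 1.19 (mmu_piR_012087). Across the 86 entries, which share the libraries and in part their reads, it had a Spearman rho of -0.53 with the Sfpq-IP value over the Ago2-IP value. This ratio of the inputs thus went along with the split between the IPs. The division of reads over the input libraries was not resolved by it, and its part in the ratios was not tested.

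At the limit itself, the entries just inside were mmu_piR_019637 with a highest value of 20.04, mmu_piR_000164 with 20.9 and mmu_piR_030801 with 24.6. Just outside were mmu_piR_014872 with 18.0, mmu_piR_000267 with 15.7 and mmu_piR_016233 with 13.9. All 6 were below input with Ago2, with mmu_piR_016233 at 0 in the Ago2-IP. Of the 549 entries under 20, 297 stayed under 1 in every column, and their sum was 164 in the Ago2-IP and 349 in the Sfpq-IP, against an input of 702 in the Ago2 table and 606 in the Sfpq table.

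The limit was reached in the input by 83 of the 86 entries, in the Sfpq-IP by 68 and in the Ago2-IP by 56, and in all 4 columns by 55. No entry was at 0 in any column (0 of 86). Where a value was 12 or less, it equalled 1 combination of whole reads. mmu_piR_030801, for example, had 5 reads in the Ago2-IP and 10 in the Sfpq-IP, in all 3 libraries of each, and mmu_piR_000164 had 5 reads in 2 of the Ago2 libraries and 39 in all 3 Sfpq libraries.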

How the data were processed

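The 9 small RNA libraries (3 per group) were grouped by their sample titles. According to the study's methods, a SOLiD sequencer was used, and omiRas mapped, normalised and compared the reads. The methods also state mapping with LifeScope 2.5.1 and annotation by Ensembl non-coding RNAs, and the processing notes name cutadapt and mm10. Which of the mapping tools gave these tables is not given in the sources used here. The authors deposited 2 tables with 1 signal per small RNA and group, pooled over libraries, used here as 4 columns. Their log2 ratio, p-value and false discovery rate columns and 3 further lists (small RNAs past a background limit, with ratios) hold the authors' own comparisons and were not used. Number of columns of single samples: 0.

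Ratios to input were computed anew on the log2 scale. A value of 0, which none of the 86 entries had, was set to a floor of 3 reads over the group. The limit for calling an entry above or below input was 2-fold. With 1 pooled value per group no test was run. Low values gave the weights of 1 read per library, and reads were estimated with the mean weight. Weights and intervals were tested on simulated data. The simulation of the intervals drew counting error with 1 weight per group, so unequal weights, PCR copies and spread between libraries were not covered.

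Members, lists and rules were chosen with earlier results of these data known. Named were the 10 entries with the highest values, the 8 highest and 8 lowest ratios of each RNA-IP, entries on opposite sides of input with at least 2-fold on 1 side, entries at 0 in 1 group and at 20 or more in the other (0 found), the 3 entries on either side of 20, and entries sharing a name with the first 10. Alternatives were other scalings (3), pseudocounts of 1 and 10, minimum values of 10 and 50, a minimum in the input, single-name entries, summed entries and a 4-fold limit. Python 3.11.15, pandas 2.3.3, NumPy 2.4.6, SciPy 1.17.1 and matplotlib 3.10.9 were used.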

Additional observations from a re-analysis of the deposited data

How the results depend on the processing

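With the overall median of each table set to 0 (a shift of -1.17 with Ago2 and -0.79 with Sfpq), the median ratios of the 86 piRNA entries were -2.34 and -0.995, and the median difference was 1.31. Centred on mature miRNAs (0.48 and 0.43), the medians were -3.99 and -2.21, 4 entries were 2-fold above input with Ago2, and 6 were on opposite sides. Scaled to the same sum (0.43 and 0.63), the medians were -3.94 and -2.41 and 3 were on opposite sides. For the counts, shares of all small RNAs under these scalings were not computed. A pseudocount of 10 gave a median of -2.81 with Ago2 and a difference of 1.38. At a 4-fold limit 2 entries were above input with Ago2 and 3 with Sfpq, and 36 were below with Sfpq. With 2-fold required on both sides, 2 were on opposite sides. No median changed its sign, and the other alternatives left each count within 1.5 times and the medians between -3.53 and -3.37 with Ago2, -1.88 and -1.59 with Sfpq and 1.48 and 1.80 for the difference. After the values were seen, the piRNA share was also taken without mmu_piR_000691 (0.427% with Ago2, against 3.77% and 3.74% of the input), opposite sides were counted with both counting intervals off 0 (7), and the named entries were run under the 3 scalings and 2 pseudocounts, where 0 of the 56 ratios at 2-fold or more changed side. Of all 66 ratios of these entries 3 changed sign when centred on all small RNAs, 3 when centred on mature miRNAs and 6 at the same sum. No paired analysis was possible because the columns hold the authors' pooled values and carry no replicate numbers, and a library could be left out only for values that resolve into whole reads. Entries of few reads, such as mmu_piR_034454 and mmu_piR_012087, are limited by depth.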
